A study of Homo sapiens with 2 samples.

Results

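The 10 genes described here are ANGPTL4, ADM, VEGFA, NDRG1, BNIP3, BNIP3L, EGLN1, EGLN3, P4HA1 and CA9, genes of the response to low oxygen that lie outside glycolysis. They were chosen by name from 55773 annotated gene symbols, with earlier results of these data known, and each had 1 row in the tables. The study profiled RNA of NCI-H2030, an established human lung adenocarcinoma cell line, by RNA-seq. One culture was treated with SC and another with miR-494-3p AS, a treatment directed, by its name, at the microRNA miR-494-3p. The labels spell out neither SC nor AS, and the 2 libraries are called by these names. Per the labels, both groups share the cell line and the directional library kit, and no dose, time or oxygen level is among the labels used here. With 1 library in each group there is no replicate error and no test, so each value below compares these 2 libraries only. In bulk RNA, fewer cells that express a gene and less of its RNA per cell cannot be told apart.

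Cells sense oxygen through HIF, a transcription factor made of an oxygen-sensitive alpha subunit and the stable beta subunit ARNT. In the presence of oxygen, prolyl hydroxylases of the EGLN family mark the alpha subunit, the VHL ubiquitin ligase recognises the mark, and the proteasome destroys the protein. When oxygen is short the alpha subunit accumulates, pairs with ARNT and binds the core letters ACGTG or GCGTG at its target genes, which serve blood vessel growth, removal of mitochondria, acid export, collagen maturation and, as feedback, oxygen sensing itself. HIF is regulated largely at the protein level, which RNA-seq does not measure.

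Depth was close in both libraries: 1 unit of FPKM, a level per transcript length and sequenced fragments, most often stood for a coverage of 3.62 in SC and of 3.54 in AS. Of the rows above 0, 54.6% (SC) and 52.6% (AS) lay within 1% of this constant, and the rest did not follow it. A gene was counted as measured at a mean of at least 1 TPM (a level per transcript length, scaled to the library total) over both libraries, which 13669 genes reached. Ratios are log2((AS + 1)/(SC + 1)) in TPM, so that a low gene's ratio is understated, and 2-fold is a log2 ratio of 1. The median ratio of all measured genes was 0.28, so a gene at 0 lay below the typical gene. Among epithelial markers KRT8 was at 485.8 TPM (SC) and 345.4 TPM (AS), KRT18 at 557.8 and 479.1 TPM and KRT7 at 67.9 and 55.2 TPM, whereas NKX2-1, CDH1 and SFTPB were under 0.1 TPM in both and SFTPC was listed at 0. NAPSA was at 1.62 and 1.04 TPM and EPCAM at 0.604 and 1.84 TPM. The squamous markers TP63, KRT5 and KRT6A were listed at 0 in both. Of the 4 leukocyte markers PTPRC and CD3E were listed at 0 and CD79A was at 0.118 and 0.194 TPM, while CD68, a lysosomal protein that cells other than leukocytes also make, was at 285.1 and 202.7 TPM. Of the fibroblast markers COL1A2 was listed at 0 and DCN and PDGFRB were under 0.1 TPM. COL1A1 stood at 26.3 and 15.8 TPM and LUM at 1.67 and 2.35 TPM. Of the endothelial markers KDR was listed at 0, CDH5 was at 0.149 and 0 TPM and VWF at 0 and 0.0511 TPM, while PECAM1 had no value.

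The core that HIF binds was searched in the promoters of these genes because the members share a described regulator but did not share a direction. RefSeq promoters (build GRCh38.p14), from 250 bases before the start of the gene to 50 bases after it, were found for 7 of the 10 genes. VEGFA, NDRG1 and BNIP3L had no entry. Among the 7 promoters, 5 held ACGTG and 2 held GCGTG on either strand, and 6 held at least 1 of these motifs. Of all 35116 promoters, 21.4% held ACGTG, 36.5% held GCGTG and 48.4% held either. In BNIP3 the ACGTG matches on the 2 strands overlap in CACGTG, a sequence also known as an E-box, and 4 further matches were GCGTG. The EGLN3 promoter held neither motif, which says only that these letters are not in this window. The stretches below are written on the strand of the gene, 5′ to 3′, with the motif or its reverse complement in capitals. They lie at chr19:8363909-8363937 for ANGPTL4, chr11:10304960-10304988 for ADM, chr10:131982040-131982068 for BNIP3, chr1:231422288-231422312 for EGLN1, chr10:73096936-73096964 for P4HA1 and chr9:35673898-35673926 for CA9, with BNIP3, EGLN1 and P4HA1 on the minus strand and the others on the plus strand.
ANGPTL4: ggaaagaagagtCACGTctcccacggttc
ADM: gagcaggagcgcGCGTGgctgaggaaaga
BNIP3: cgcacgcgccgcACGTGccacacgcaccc
EGLN1: gggccgtggtgtACGTGcagagcgc
P4HA1: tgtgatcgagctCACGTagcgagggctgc
CA9: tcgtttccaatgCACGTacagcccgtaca
These matches are descriptions of the sequence and not measured binding sites. Genes with a match included the lowest ratio of the set, that of ANGPTL4, the highest, that of P4HA1, and CA9, which was listed at 0 in both libraries.

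The microRNA named by the treatment recognises messages through its seed, bases 2 to 8, shown in capitals in the mature sequence from RefSeq (chr14:101029681-101029702, plus strand, GRCh38.p14).
hsa-miR-494-3p: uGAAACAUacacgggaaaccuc
The sites that pair with it are ATGTTTCA, ATGTTTC and TGTTTCA. In the longest 3' UTR of each gene in GENCODE release 29, 6 of the 10 genes held at least 1 site. Of the 8 measured members 5 did, against 27.7% of 10562 measured coding genes. P4HA1 held the only 8-base site of the set, at bases 131 to 138 of its UTR. EGLN1 and BNIP3L held 2 sites of 7 bases each, and VEGFA, BNIP3 and EGLN3 held 1. The UTRs of the members with a site were between 1005 bases long (P4HA1) and 2717 bases (BNIP3L), against a median of 1210 bases over measured coding genes. The sites of 3 of these genes are shown, with the pairing bases in capitals, because their genes include both the highest ratio of the set and 1 below 0.
P4HA1, UTR base 131: acctcatcccATGTTTCAtctgtggaca
EGLN1, UTR base 1419: aattttatttTGTTTCAtgggttttct
EGLN1, UTR base 2581: tgaaaagcagTGTTTCAttatgaaaga
BNIP3, UTR base 1996: tgagctacccTGTTTCAgctgtaacac
ANGPTL4, NDRG1, ADM and CA9 had no site, in UTRs of 487, 1707, 756 and 261 bases. Of the 8 measured members, the 5 with a site had log2 ratios of 1.03 (P4HA1), 0.92 (EGLN1), 0.37 (VEGFA), -0.19 (BNIP3) and -0.51 (BNIP3L), and the 3 without had 0.77 (ADM), -0.66 (NDRG1) and -1.51 (ANGPTL4). The ranges of the 2 sets overlapped. Over all measured coding genes the median was 0.63 for those with a site and 0.19 for those without, with no matching on GC content.

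As a set, the hypoxia response genes did not move in 1 direction. Of the 10 genes, 8 were measured; EGLN3 was below the minimum and CA9 was listed at 0. In TPM 4 of the 8 were higher in AS and 4 lower, with a median log2 ratio of 0.09 that lay -0.19 from the median of all genes. Among all 13669 measured genes fewer than 4742 were lower in AS, because EGLN2, at 0.02, held rank 4742 counted from the lowest. Only ANGPTL4 was at least 2-fold lower, where 2.17% of all measured genes were, and only P4HA1 was at least 2-fold higher, where 16.5% of all measured genes were. P4HA1 is no longer past 2-fold once ratios are centred on the median of all genes, at 0.74. The other 6 lay within 2-fold. By coverage 5 of the 8 were higher and 3 lower, because BNIP3L changed sides. The median coverage ratio of all measured genes was 0.34. Summed over the 10 genes the level was 650 TPM (SC) and 382 TPM (AS), and without ANGPTL4 it was 248 and 241 TPM, so that the difference of the sum rested on that gene.

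**Figure D1:**
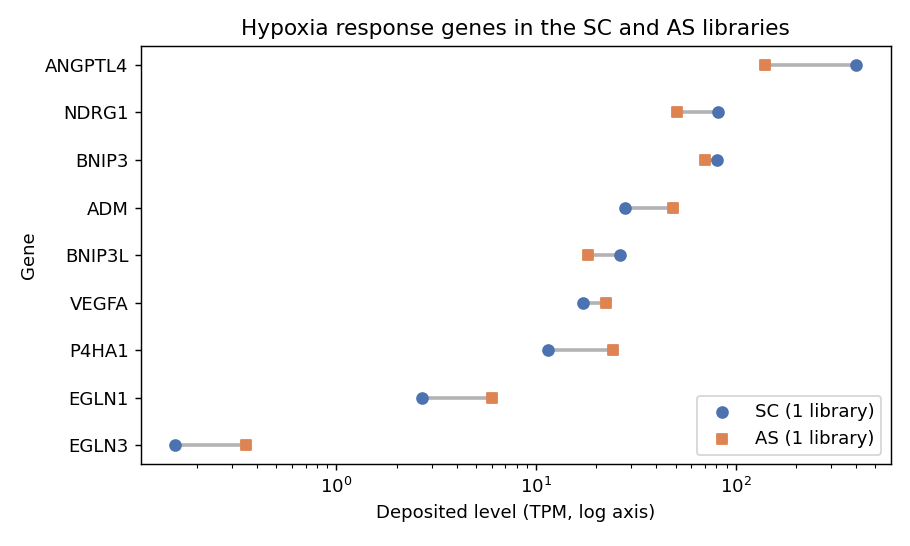
Deposited level in TPM (horizontal log axis) of the 9 members above 0, with 1 point for the SC library and 1 for the AS library. ANGPTL4 spans 402 to 140 TPM and has the widest change among the abundant genes, while BNIP3 lies at 80.5 and 70.5 TPM. CA9, listed at 0 in both, is not drawn.

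The secreted factors differed among themselves. ANGPTL4 encodes an inhibitor of lipoprotein lipase (ENSG00000167772, chr19:8428173-8439257, plus strand, GRCh37). It stood at 402 TPM in the SC library and 140 TPM in the AS library, with FPKM of 204 and 66.0 and a coverage, the mean read depth per base, of 559 and 176. It was the most abundant member in both libraries and ranked 362 among all symbols in SC and 1092 in AS. The log2 ratio of ANGPTL4 was -1.51 by TPM, -1.52 by coverage and -1.52 by the assembled locus. An assembled locus is a transcript region listed beside the annotated row of the same library. It is not an independent measure: for BNIP3 the locus had the span, coverage and TPM of the row (80.5 TPM in SC, 70.5 TPM in AS). ANGPTL4 was the sole member past 2-fold lower in all 3 measures. In the background, 2.09% of all measured genes were 2-fold lower by coverage. Of the 12037 measured genes with a locus in both libraries, 1.81% were so by assembled locus and 0.748% by all 3 measures. Counted from the lowest, ANGPTL4 held rank 60 of the 13669 ratios. This rank and these shares are descriptions only, because the members were chosen with earlier results of these data known.

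ADM encodes adrenomedullin, a peptide that widens blood vessels (ENSG00000148926, chr11:10326227-10328944, plus strand). Its level was 28.0 TPM (SC) and 48.6 TPM (AS), and its coverage 32.6 and 51.8. ADM was therefore higher in AS, the opposite direction to ANGPTL4, by 0.77 (TPM), 0.80 (coverage) and 0.77 (assembled locus) on the log2 scale. VEGFA encodes the main growth factor of blood vessels (ENSG00000112715, chr6:43737921-43754224, plus strand) and was at 17.1 and 22.3 TPM, with a coverage of 6.67 and 7.82. Its ratio of 0.37 in TPM was 0.08 above the median of all genes, and in the assembled locus it was 0.25, just under the median of 0.27 for loci.

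Several receptors of these factors were listed at or near 0. FLT1 and KDR, receptors of VEGFA, were listed at 0 in both libraries, as were RAMP2 and RAMP3, partners of the adrenomedullin receptor, and LPL, the enzyme that ANGPTL4 inhibits. CALCRL, the adrenomedullin receptor itself, was at 0.0624 TPM (SC) and 0.0567 TPM (AS). Of 23 ligands and receptors around the 3 factors, 10 were measured. In TPM 2 of these were 2-fold or more higher, where 16.5% of all measured genes were, and none was 2-fold lower, where 2.17% were. PGF, a relative of VEGFA, was at 2.21 and 7.19 TPM (log2 ratio 1.35) and NRP2, a coreceptor, at 1.50 and 4.95 TPM (1.25), but their coverage ratios were 0.19 and 0.11. NRP1, another coreceptor of VEGFA, was at 17.1 and 19.5 TPM. VEGFC, a growth factor of lymphatic vessels, had a ratio of 0.72 and PDGFA one of 0.72. The other paralogs of VEGFA were VEGFB, at 123 and 97.8 TPM (-0.32), and VEGFD, listed under its older symbol FIGF, at 0.308 and 1.07 TPM. ADM2, a peptide related to ADM, was at 9.18 and 6.36 TPM (-0.47).

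NDRG1 encodes a cytoplasmic protein induced by hypoxia and by cell differentiation (ENSG00000104419, chr8:134249414-134314265, minus strand). NDRG1 stood at 81.3 TPM (SC) and 51.0 TPM (AS), with a coverage of 33.6 and 19.1. The log2 ratio was -0.66, with -0.67 by coverage and -0.66 by locus, and it held rank 825 of the 13669 ratios, counted from the lowest. Its paralogs were at other levels and ratios, with NDRG2 at 19.8 and 16.5 TPM (-0.25), NDRG3 at 26.8 and 37.7 TPM (0.48) and NDRG4 at 0.364 and 0.888 TPM, below the minimum.

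BNIP3 and BNIP3L encode related receptors on the outer mitochondrial membrane that recruit the autophagy machinery. BNIP3 (ENSG00000176171, chr10:133781578-133795435, minus strand) was at 80.5 TPM (SC) and 70.5 TPM (AS), with a coverage of 81.7 and 65.1 and the same log2 ratio, -0.19, by each of the 3 measures. Pseudogenes of BNIP3, which may take some of its reads, were at 0.365 and 0.744 TPM (BNIP3P1) or listed at 0 (BNIP3P2, BNIP3P3 and BNIP3P7).

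BNIP3L had no single direction. The annotated row (ENSG00000104765, chr8:26240414-26363152, plus strand) was at 26.3 TPM (SC) and 18.2 TPM (AS), which is -0.51 on the log2 scale. Its coverage was 7.21 in SC and 10.3 in AS, a ratio of 0.65. The assembled locus spanned bases 26240414 to 26270645 in SC and 26239940 to 26270645 in AS, so that it shared 24.6% (SC) and 24.5% (AS) of the combined span of row and locus. Its level was 26.3 TPM (SC) and 40.8 TPM (AS), a log2 ratio of 0.61. In TPM the SC values of row and locus were thus equal to 3 digits, and they parted only in AS. In coverage row and locus differed in both libraries, at 7.21 and 48.2 in SC and at 10.3 and 67.6 in AS. Coverage can be set against the FPKM of the same row, as the percent of the coverage that the FPKM would give at the constant of its library. That percent was 14.9 in SC and 34.0 in AS for BNIP3L, while for ANGPTL4, NDRG1, VEGFA, BNIP3, EGLN1, P4HA1 and ADM it differed by less than 1 point between the libraries. A program that divides the reads of a gene among its transcripts can move the FPKM without moving the reads, and its part here was not tested. Of all measured genes 3.94% were lower in TPM and higher in coverage, as BNIP3L was.

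**Figure D2:**
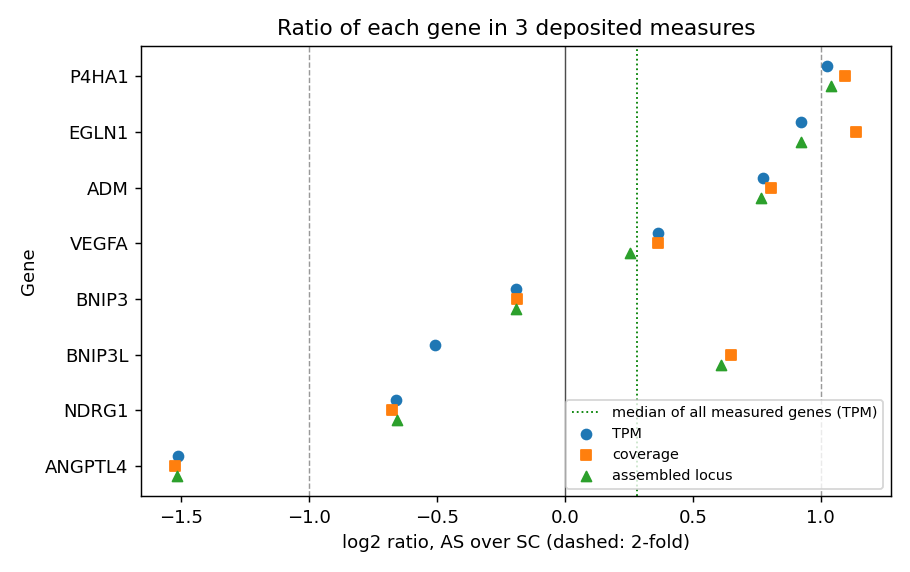
Log2 ratio of AS over SC (horizontal axis) of the 8 measured members by TPM (circles), coverage (squares) and the TPM of the assembled locus (triangles), with dashed lines at 2-fold and a dotted line at the median of all measured genes in TPM. The 3 symbols lie close together in 7 genes, and in BNIP3L the circle is at -0.51 and the others at 0.65 and 0.61.

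Other genes of mitochondrial autophagy were described by a list of 21, of which 19 were measured. In TPM 3 of them were 2-fold or more higher and 0 lower, where 16.5% of all measured genes were higher and 2.17% lower. The median log2 ratio of the list was 0.24 against 0.28 for all genes. TAX1BP1, an autophagy adaptor, was at 22.0 and 53.1 TPM (1.23), and BECN1, a subunit of the lipid kinase that starts autophagosomes, at 11.7 and 28.2 TPM (1.20). Both were past 2-fold in coverage and assembled locus as well. Of measured genes with a locus in both libraries, 9.31% were higher in all 3 measures. CALCOCO2, another adaptor, had a ratio of 3.01 in TPM but 0.88 in coverage. FUNDC1, a receptor with a role like that of BNIP3, was at 4.75 and 10.4 TPM (0.99), while the kinase PINK1, named after its values were seen, was at 63.8 and 52.0 TPM (-0.29).

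Oxygen sensing was described by the prolyl hydroxylases. EGLN1, the hydroxylase also called PHD2 (ENSG00000135766, chr1:231499497-231560790, minus strand), was at 2.69 TPM (SC) and 5.98 TPM (AS), with a coverage of 4.81 and 9.73. The log2 ratio was 0.92 in TPM and in the assembled locus and 1.14 in coverage, so that EGLN1 was past 2-fold in coverage, where 20.2% of all measured genes were. Its ratio in TPM lies just under 2-fold because 1 TPM is added to a low level; with 0.1 added it was 1.13. EGLN3, the hydroxylase PHD3 and itself a described HIF target (ENSG00000129521, chr14:34393437-34931980, minus strand), was at 0.156 and 0.350 TPM, too low to be measured. EGLN2, the hydroxylase PHD1, was at 133 and 135 TPM (0.02). The hydroxylases thus stood in the same order in both libraries, EGLN2 far above EGLN1 and EGLN1 above EGLN3.

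Of 20 genes for HIF subunits and the proteins that control them, 18 were measured, with a median log2 ratio of 0.59, 0.30 above all genes. Set against coding genes of like GC content, in the bins described below, the median difference was 0.17. On that scale 8 of the 18 lay below the median of their bin. In TPM 2 were at least 2-fold higher and 1 was 2-fold lower, where 16.5% of all measured genes were higher and 2.17% lower. HIF1A, an alpha subunit, was at 0.651 TPM (SC) and 11.4 TPM (AS), a ratio of 2.91. In coverage its ratio was 1.30 and in the assembled locus, at 5.03 and 11.3 TPM, it was 1.03. All 3 measures were thus past 2-fold but of unlike size. Among measured genes with a locus in both libraries, 9.31% were 2-fold higher in all 3. Set against its GC bin, HIF1A lay 2.01 higher in TPM but 0.27 higher in coverage. Its coverage was 96.8% of that implied by the FPKM in SC and 14.3% in AS. CUL2, the scaffold of the VHL ligase, likewise differed between measures, with 2.20 in TPM, 1.20 in coverage and 0.22 in the locus. USP20, a deubiquitinase that acts on HIF1A, was at 9.96 and 1.87 TPM (-1.93), but at -0.67 in coverage and -0.46 in the locus.

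The other genes of this list lay within 2-fold in TPM. EPAS1, which encodes the alpha subunit HIF-2 alpha, was at 20.4 and 24.1 TPM (0.23), and the beta subunit ARNT at 8.30 and 12.7 TPM (0.56). HIF3A was listed at 0 in both, and ARNT2 was at 0.114 and 0.237 TPM. VHL, the recognition subunit of the ligase, was at 8.45 and 17.4 TPM (0.96), and its partners ELOC (listed as TCEB1), RBX1 and ELOB (listed as TCEB2) had ratios of 0.79, 0.14 and -0.14. HIF1AN, the asparaginyl hydroxylase that limits HIF activity, had a ratio of 0.52, and the ubiquitin ligases SIAH1 and SIAH2, which act on prolyl hydroxylases, had 0.61 and 0.75. The coactivators EP300 and CREBBP stood at 0.98 and 0.91 in TPM and at 1.37 and 1.21 in coverage, and CITED2, which competes with HIF for them, at 0.96. HSP90AB1, a chaperone, had a ratio of -0.00 and RACK1 (listed as GNB2L1), a scaffold protein that promotes loss of HIF1A, one of -0.57 in TPM and 0.31 in the locus.

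**Figure D3:**
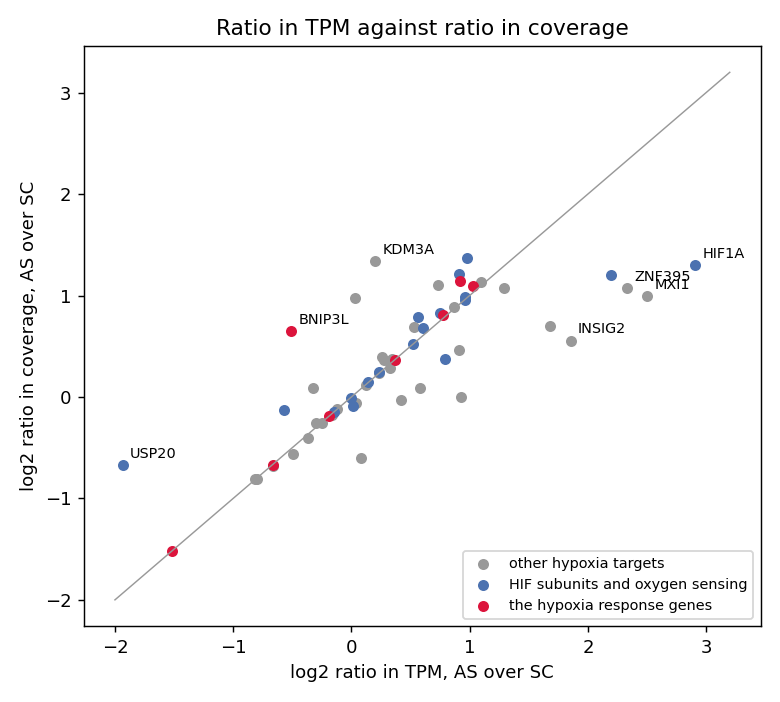
Log2 ratio in TPM (horizontal axis) against log2 ratio in coverage (vertical axis), AS over SC, for the measured genes of 3 lists, with the line of equality; genes whose ratios differ by more than 1 are named. HIF1A lies at 2.91 and 1.30 and BNIP3L at -0.51 and 0.65, and most other points lie near the line.

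Collagen maturation and acid balance completed the set. P4HA1 encodes a catalytic subunit of collagen prolyl 4-hydroxylase (ENSG00000122884, chr10:74766975-74856732, minus strand) and was at 11.4 TPM (SC) and 24.3 TPM (AS), with a coverage of 18.7 and 36.4. By TPM its log2 ratio was 1.03, by coverage 1.09 and by locus 1.04, and it was the only member past 2-fold higher in all 3 measures, where 9.31% of measured genes with a locus in both libraries were (13.6% by locus alone). Its paralog P4HA2 was at 17.9 and 24.3 TPM (0.42), but at -0.03 in coverage and -0.13 in the locus, and P4HA3 was at 0.458 and 0.316 TPM. P4HB, the partner subunit that P4HA1 binds, was at 1726 and 1112 TPM (-0.63), lower in AS where P4HA1 was higher. Set against coding genes of like GC content, in the bins described below, P4HA1 lay at 0.13 and P4HB at -0.57. Of 12 measured genes of collagen modification none was past 2-fold in TPM or in coverage, and the list median was -0.32. In TPM 16.5% of all measured genes were 2-fold higher and 2.17% were 2-fold lower. The lysyl hydroxylase PLOD1 had a ratio of -0.66, the prolyl isomerase PPIB one of -0.62 and the prolyl 3-hydroxylase P3H2 (listed as LEPREL1) one of 0.67.

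CA9, the cell surface carbonic anhydrase that is widely used as a marker of hypoxia (ENSG00000107159, chr9:35673853-35681156, plus strand), was listed at 0 TPM, FPKM and coverage in both libraries, and no assembled locus was assigned to it. CA12, its close paralog, was at 5.49 and 4.79 TPM (-0.16). Of 9 measured genes of acid balance, 1 was 2-fold higher and 1 was 2-fold lower, in all 3 measures. Of measured genes with a locus in both libraries, 9.31% were higher and 0.748% lower in all 3. The higher one was SLC16A1, a lactate carrier, at 1.55 and 15.2 TPM (2.66 in TPM, 1.64 in coverage, 1.05 in the locus). The lower one was SLC16A3, the lactate carrier described as a HIF target, with a ratio of -1.10. The proton pump subunits ATP6V1A and ATP6V0D1 had ratios of 0.61 and -0.35.

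The wider set of hypoxia targets outside glycolysis did not stand apart from all genes in its median. Of 39 such genes 33 were measured, and their median log2 ratio was 0.26 against 0.28 for all genes. In TPM 6 were 2-fold or more higher and 0 lower, where 16.5% of all measured genes were higher and 2.17% lower. By coverage 5 were higher and 0 lower, where 20.2% of all measured genes were higher and 2.09% lower. MXI1, a partner of MAX that opposes MYC, was at 0.104 and 5.25 TPM (2.50), ZNF395 at 0.980 and 8.96 TPM (2.33), INSIG2, which restrains cholesterol synthesis, at 0.592 and 4.76 TPM (1.85) and ATXN1 had 1.68, but in coverage these were 0.99, 1.08, 0.56 and 0.70. Only 3 genes, ZNF395, WSB1 (1.29) and TMEM45A (1.09), were past 2-fold in all 3 measures. Of measured genes with a locus in both libraries, 9.31% were higher in all 3. WSB1 and TMEM45A were named after their values were seen. At the low end, named on the same footing, DDIT4, an inhibitor of mTORC1, was at 261 and 150 TPM (-0.80) and NDUFA4L2 at 2.89 and 1.21 TPM (-0.82).

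Glycolytic genes, listed as enzymes and carriers and not by their response to hypoxia, lay lower. All 22 of a list of glycolytic enzymes and carriers were measured, with a median of -0.37, 3 at least 2-fold lower (ENO2, ALDOC and SLC16A3, at -1.17, -1.09 and -1.10) and 1 higher (PDK1, 1.07 in TPM and 0.50 in coverage). In TPM 2.17% of all measured genes were at least 2-fold lower and 16.5% were higher. The 3 lower genes were past 2-fold in coverage and locus too, and SLC16A3 is the same gene that was counted as lower under acid balance. Of measured genes with a locus in both libraries, 0.748% were lower in all 3 measures. In this list 17 of 22 genes lay under the median of all genes, in the 10 described here 4 of 8 measured, and in the wider set 18 of 33, where 50% of all measured genes do by construction. The difference between the lists was not tested.

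**Figure D4:**
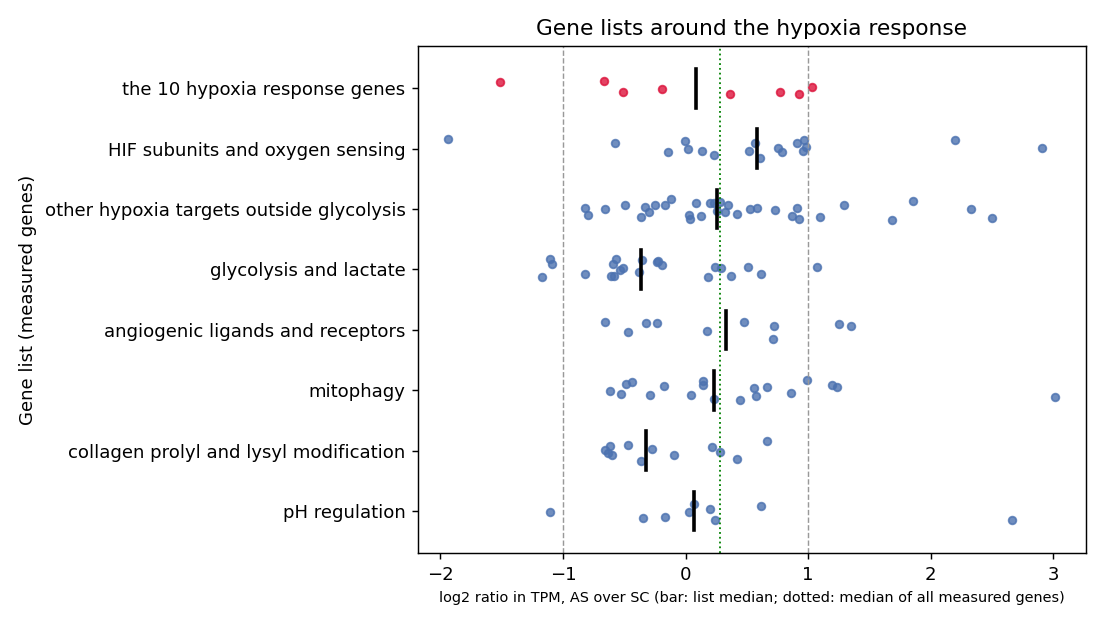
Log2 ratio in TPM, AS over SC, of the measured genes of 8 lists (1 point a gene), with a bar at the list median, dashed lines at 2-fold and a dotted line at the median of all measured genes. The 8 measured members spread from -1.51 to 1.03, and the glycolysis list is centred at -0.37.

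Base composition moved with these ratios. The 10769 measured coding genes were cut by the GC content of their transcript into 10 bins of nearly equal size. The median log2 ratio ran from 0.90 in the bin of lowest GC content to -0.29 in the bin of highest, and across these genes, which share the same 2 libraries, Spearman's rho of GC content with the ratio was -0.64. P4HA1 (40.8% GC) and EGLN1 (44.1%) lay 0.13 and 0.15 above the median of their bin. VEGFA (51.3%) lay 0.11 above it. ADM, at 58.5% GC, lay 0.84 above its bin, whose median was -0.07. Set against genes of like GC content, ADM thus had the highest value of the measured members, ahead of EGLN1.

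Below their bin lay ANGPTL4 (63.3% GC) by -1.23, NDRG1 (58.0%) by -0.60 and BNIP3 (51.4%) by -0.45. BNIP3L, the member of lowest GC content at 38.9%, lay at -1.40 in TPM and at -0.38 in coverage. Of the 8 measured members, 4 lay above and 4 below the median of their bin, in TPM as in coverage. On this scale in TPM, ANGPTL4 and BNIP3L would be at least 2-fold lower, BNIP3L not so by coverage, and P4HA1 would not be 2-fold higher. The share of all coding genes past 2-fold on this scale was not computed, so these calls have no background to be read against. The part of base composition in the result was not tested further.

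**Figure D5:**
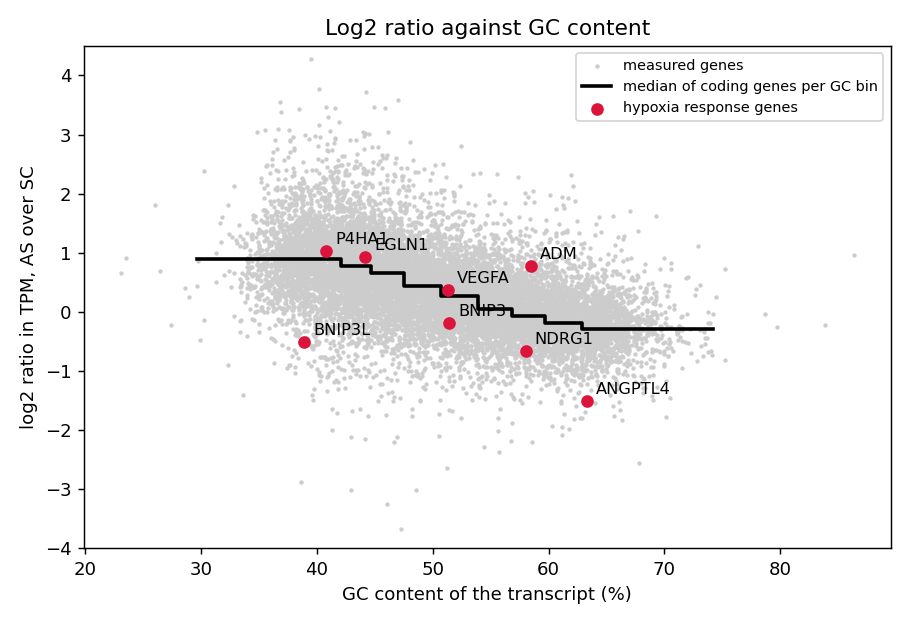
GC content of the transcript in percent (horizontal axis) against log2 ratio in TPM, AS over SC (vertical axis), for measured genes (grey), with the median of coding genes in each GC bin (black steps) and the 8 measured members (red, named). P4HA1, EGLN1 and VEGFA lie near the steps, ADM 0.84 above them and ANGPTL4 1.23 below.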

How the data were processed

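RNA of 1 NCI-H2030 culture per group, SC and AS, was sequenced. Per the file headers, the authors deposited 1 table per library with columns for coverage, FPKM and TPM. No aligner or quantifier is given in the sources used here. Each deposited TPM column holds annotated genes and loci assembled from the reads, on 1 scale. The submitters' processing notes name GRCh38 and hg38, but the gene coordinates are those of GRCh37: of 50963 identifiers found in GENCODE release 29 (GRCh38), 0.716% had the same start. The deposited FPKM differed from TPM by a constant, 1.98 in SC and 2.13 in AS. Read counts were not analysed here, so depth is given as coverage per FPKM and no counting interval was computed.

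With Python 3.11.15 and pandas 2.3.3, rows of 1 symbol were summed and log2 ratios taken with 1 TPM, 0.5 FPKM or 0.1 of coverage added. Coverage was brought to the TPM scale of its library, which raised its ratios by 0.14. An assembled locus was assigned to the gene of its strand with the best overlap of spans (shared over total length), and the locus of highest TPM was used. GC content is that of the longest coding transcript in GENCODE. The calculations were tested on simulated data. Named genes are the members, the HIF list, the paralogs (1 is not reported here) and the 4 largest absolute ratios of each other list. Outside this rule, PINK1, NRP1, FLT1, KDR, RAMP2, RAMP3, LPL, CALCRL, WSB1, TMEM45A, DDIT4 and NDUFA4L2 were named after their values were seen. The members and lists were chosen with earlier results of these data known.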

Additional observations from a re-analysis of the deposited data

How the results depend on the processing

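With 11 alternatives, ANGPTL4, NDRG1, BNIP3, ADM, P4HA1, EGLN1 and VEGFA kept the sign of their log2 ratio in each that measured them. EGLN1 was not measured at a mean of 5 TPM. The filter settings and the highest row of a symbol could not change the ratio of a gene with 1 row. VEGFA fell to 0.08 after centring on the median of all measured genes and to 0.02 after trimmed mean scaling. BNIP3L changed sign with the coverage column (0.65) and the assembled locus (0.61). The 1 member at least 2-fold higher became 0 in FPKM, with a pseudocount of 5, after centring on the median of all measured genes and after trimmed mean scaling, and 2 in coverage and with a pseudocount of 0.1. The 1 member at least 2-fold lower became 2 after trimmed mean scaling, which took 0.35 from each ratio, with NDRG1 at -1.01. Of the settings that changed these counts, only coverage has a share of all measured genes, 20.2% higher and 2.09% lower. That share was not computed for the others, so their counts have no background to be read against. The median of the members ranged from -0.26 to 0.51 and was below 0 in FPKM (-0.01), after centring (-0.19), after trimmed mean scaling (-0.26) and at a mean of at least 5 TPM (-0.19). For the wider hypoxia targets it ranged from -0.09 to 0.27, and for HIF subunits from 0.24 to 0.66. No paired analysis was possible because each group has 1 library, and no library could be left out. Precision cannot be stated without counts or replicates.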
